A study of Mus musculus with 18 samples.

Results

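Wild-type mouse macrophages that received heme and then LPS were compared with wild-type macrophages that received albumin alone. The comparison takes 6 of the 18 arrays of the series, chosen by their labels: 3 arrays of heme and LPS (lettered a, b and c) and 3 arrays of albumin (a, b and c). All 6 samples were bone marrow derived macrophages with both copies of Nrf2 (Nrf2+/+), grown from the marrow of mice aged 8 to 10 weeks in 10 ng/ml M-CSF for 7 days. The sources used here give neither the strain nor the sex of the mice. The albumin samples had 4 h of albumin without heme. The heme and LPS samples had 4 h of heme-albumin at 200 µM and then 4 h of LPS at 10 ng/ml. The heme, the LPS and the longer time under treatment are therefore joined in this comparison and cannot be told apart in it. Each sample was labelled with Cy5 and set against untreated macrophage RNA labelled with Cy3, and the sources used here do not give the genotype of that reference. The series also holds 3 wild-type arrays of LPS alone (4 h at 10 ng/ml), used below for values side by side. Their labels name no albumin, and whether these cells had albumin first could not be worked out. A further 9 arrays of Nrf2-/- macrophages entered only the estimate of the spread.

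LPS, the endotoxin of Gram-negative bacteria, is sensed on macrophages by Cd14 and Tlr4. Adaptor proteins of that receptor lead on the one hand to NF-kB, which switches on cytokine and chemokine genes, and on the other to interferon beta, whose receptor switches on antiviral genes. Heme, the iron-bearing group of hemoglobin, is degraded by heme oxygenase (Hmox1), its iron is stored in ferritin or exported by ferroportin (Slc40a1), and it releases the NRF2 and BACH1 controlled antioxidant genes. Macrophages of liver and spleen that recycle red cells carry out this work constantly.

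Values are log2 ratios of the sample to the untreated reference. A difference is the mean of the heme and LPS arrays minus the mean of the albumin arrays, with the standard error (SE) of a limma fit over all 18 arrays and n = 3 per group. A gene was called where the p adjusted over all 22485 genes (Benjamini-Hochberg) was under 0.05, and "rose" and "fell" are used only for called genes. Where 3 values follow each other they belong to arrays a, b and c in that order. The design text calls the replicates independent and biological. In a bulk sample fewer cells of a type and less RNA per cell cannot be told apart.

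The arrays were not equally full. A value of exactly 0 stood at 18.2% to 20.9% of the features on the albumin arrays, and at 46.4%, 17.9% and 41.3% on heme and LPS arrays a, b and c. Over all genes the albumin arrays correlated with each other at 0.555 to 0.582 and the heme and LPS arrays at 0.635 (a with b), 0.758 (a with c) and 0.798 (b with c). Heme and LPS array a stood apart from b and c in several gene lists, for which each array's list median is given below. In each of the 4 treated groups of the series array a had the most features at 0 (44.4% to 48.8%). The deviations of these 4 arrays from their group means correlated pairwise at 0.304 to 0.586 over all genes. The labels used here name no cause, and its part in the results was not tested. The number of arrays limits the precision of each difference. Over all genes the median SE was 0.26.

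Under heme and LPS limma called 2903 genes higher (12.9% of the 22485 tested) and 3239 lower (14.4%), so that 27.3% of all genes were called. Of these, 1597 rose and 1900 fell at least 2-fold, and 65 rose and 18 fell at least 16-fold. The median called rise was 1.08 and the median called fall -1.13, and the median difference over all genes was 0. All 3 heme and LPS arrays lay above all 3 albumin arrays for 4480 genes (19.9%) and below them for 5349 (23.8%). Among the called genes the arrays did not overlap for 2731 that rose and 3187 that fell. The gene with the largest rise among those measured in both groups was Cxcl2, which encodes a neutrophil-attracting chemokine, and the gene with the largest fall was Cables1, which encodes a protein that binds cyclin-dependent kinases.

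**Figure D1:**
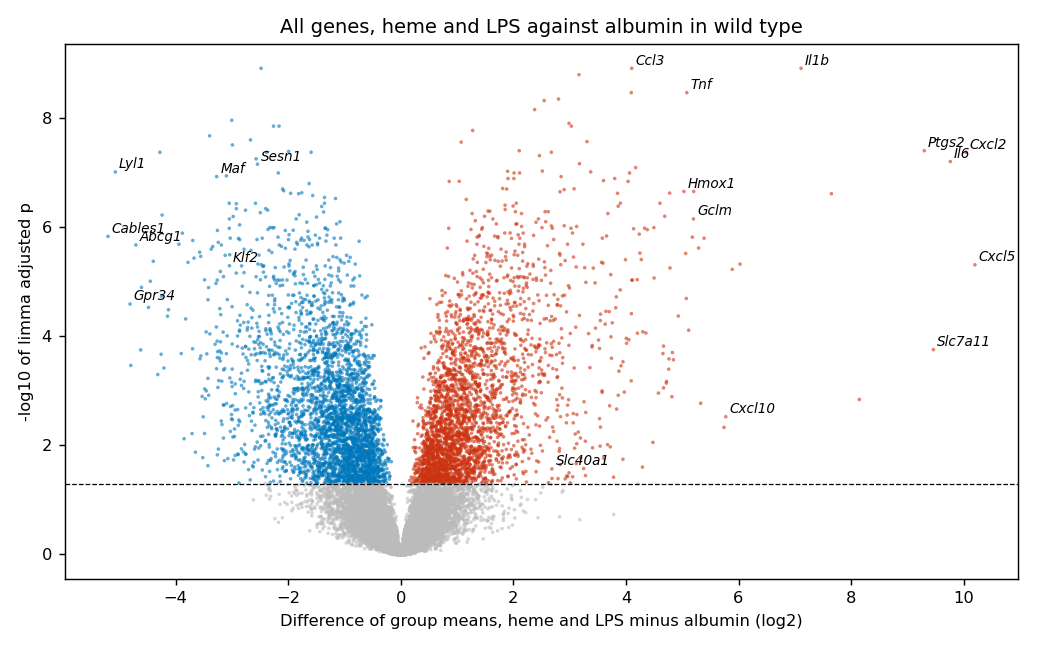
Each point is 1 of 22485 genes, with the difference of group means (heme and LPS minus albumin, log2) on the x axis and -log10 of the limma adjusted p on the y axis; the dashed line marks an adjusted p of 0.05. Red points (2903 genes) were called higher and blue points (3239) lower, and the named points include the chemokine Cxcl2 far to the right and the hematopoietic factor Lyl1 far to the left.

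Most NRF2 target genes rose. Of 39 measured 30 rose and 2 fell, where 12.9% and 14.4% of all genes did, and the median difference of the list was 1.80. Its median log2 ratio was near 0 on every albumin array (0.00, -0.03 and 0.00) and 1.78, 1.64 and 1.68 on the heme and LPS arrays. With heme and LPS array a left out 31 rose and 1 fell. Under LPS alone, which shares the albumin arrays, the median difference from albumin was 0.00, with 10 members higher and 7 lower, where 12.3% and 16.3% of all genes were. The 2 members that fell were the glutathione peroxidase gene Gpx2 (-1.36 ± 0.38) and the carbonyl reductase gene Cbr1 (-0.79 ± 0.17). With the 6 arrays alone Cbr1 was not called (limma adjusted p = 0.0508). Gpx2 was not called without albumin array a (-1.19, limma adjusted p = 0.0621) or heme and LPS array a (-1.16, adjusted p = 0.063).

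Slc7a11, the transporter that brings cystine into the cell for glutathione synthesis, had log2 ratios of -1.39, -0.63 and -1.57 under albumin and 7.66, 8.05 and 9.09 under heme and LPS. Every heme and LPS array lay more than 8 log2 units above every albumin array. The rise was 9.46 ± 1.40 (limma adjusted p = 0.000175), and under LPS alone the arrays stood at 0.00, 4.59 and 3.59. Gclc and Gclm encode the catalytic and the modifier subunit of the enzyme that starts glutathione synthesis. Gclm stood at -1.11, -1.14 and -1.30 under albumin and at 4.51, 3.57 and 3.96 under heme and LPS, a rise of 5.20 ± 0.40 (adjusted p = 7.04e-07). Gclc went from -0.97, -1.07 and -1.01 to 4.95, 3.35 and 4.52, a rise of 5.29 ± 0.48 (adjusted p = 2.4e-06). Both subunits lay below the reference on all albumin arrays and above it on all heme and LPS arrays.

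Genes of thiol repair and detoxification followed. Srxn1, the sulfiredoxin that repairs peroxiredoxins, was at 0.17, 0.16 and 0.19 under albumin and at 4.70, 3.73 and 4.07 under heme and LPS (3.99 ± 0.38, limma adjusted p = 3.93e-06). The peroxiredoxin gene Prdx1 rose by 3.85 ± 0.26 and the thioredoxin reductase gene Txnrd1 by 3.57 ± 0.34. Nqo1, a quinone reductase, stood at 0.17, 0.15 and 0.28 against 3.57, 2.98 and 2.98, a rise of 2.98 ± 0.32 (adjusted p = 1.18e-05) that is 7.88-fold. Gsta3, a glutathione transferase gene of a family whose probes may share targets, rose by 5.18 ± 0.44, and its 2 probes gave 4.21 and 6.15. None of these groups overlapped. Nfe2l2, the gene of NRF2 itself, rose by 0.72 ± 0.19 (adjusted p = 0.0127) from -0.21, 0.00 and 0.00 to 0.13, 1.0 and 0.80. It was not called without albumin array a (0.64, adjusted p = 0.0515), heme and LPS array b (0.54, adjusted p = 0.0635) or c (0.64, adjusted p = 0.0525), nor with the 6 arrays alone (adjusted p = 0.113) or the 9 wild-type arrays (adjusted p = 0.105). The members nearest to a call were Mgst1 (1.02 ± 0.37, adjusted p = 0.0529) and Cbr3 (0.88 ± 0.34, adjusted p = 0.0696).

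Promoter stretches of 2 of these genes are shown because NRF2 binds the antioxidant response element. The core searched was TGACNNNGC on both strands, in the 250 bases before the RefSeq gene start (build GRCm38.p6). Of 32851 such windows 10.2% hold it, and a match can overlap the AP-1 motif TGAGTCA, which 4.46% hold. Of the 32 NRF2 targets with a window 8 hold the core, where 11.5% of 27025 genes with a window do, among them Gclm (chr3:122245407-122245447, plus strand) and Gsta3 (chr1:21240448-21240488, plus strand). Capitals mark the match, which for Gclm lies on the other strand.
Gclm: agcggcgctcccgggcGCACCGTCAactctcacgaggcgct
Gsta3: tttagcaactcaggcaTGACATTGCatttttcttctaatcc

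The log2 ratio of Hmox1, which opens the heme ring, was -0.81, -0.87 and -0.81 under albumin and 4.47, 3.85 and 4.28 under heme and LPS, a 32.6-fold rise (5.03 ± 0.34, limma adjusted p = 2.21e-07). Under LPS alone it was -1.12, -0.51 and -0.51, below the reference as the albumin arrays were. Hmox2, the constitutive heme oxygenase gene, fell by 1.28 ± 0.13 (adjusted p = 7.49e-06), from -0.37, -0.39 and -0.39 to -1.86, -1.48 and -1.66.

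Among 34 genes that handle heme and iron, 13 rose and 5 fell, beside 12.9% and 14.4% of all genes, with a median difference of 0.44. Spic, whose product drives the development of red pulp macrophages, stood at 0.13, 0.29 and 0.25 under albumin and at 3.59, 5.76 and 6.12 under heme and LPS (4.93 ± 0.61, limma adjusted p = 4.25e-05). Array a was the lowest of the 3 heme and LPS arrays and still lay above every albumin and LPS array. The ferritin genes Fth1 and Ftl1, which encode the subunits of the iron store, rose by 1.25 ± 0.13 and 0.76 ± 0.12. The lysosomal heme transporter gene Slc48a1 rose by 1.42 ± 0.19 and the biliverdin reductase gene Blvrb by 1.21 ± 0.20. Lcn2, which binds bacterial siderophores, rose by 2.57 ± 0.26, close to its difference of 2.85 ± 0.26 under LPS alone. Tfrc, the transferrin receptor gene, fell by 1.76 ± 0.31, although its 12 probes ranged from -2.65 to 0.27. The heme and folate carrier gene Slc46a1 (-1.04 ± 0.23) and the ferrireductase gene Steap3 (-1.0 ± 0.16) fell as well. Slc46a1 was not called with the 6 arrays alone (adjusted p = 0.0596).

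Ferroportin differed between the arrays. Slc40a1 was -0.21, -0.24 and -0.16 under albumin, 0.56, 3.68 and 3.19 under heme and LPS, and -5.01, -2.54 and -2.57 under LPS alone. The heme and LPS arrays thus lay above albumin and the LPS arrays below it, with array a the lowest in both treated groups. The rise against albumin was 2.68 ± 0.84 (limma adjusted p = 0.0269). It was not called when any 1 albumin array (2.67 to 2.70, highest adjusted p = 0.0663), heme and LPS array b (2.08, adjusted p = 0.116) or array c (2.33, adjusted p = 0.0946) was left out, nor with the 6 arrays alone (adjusted p = 0.0977) or the 9 wild-type arrays (adjusted p = 0.0872). Without heme and LPS array a it was 3.64 (adjusted p = 0.00368).

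Chaperone genes had their highest levels on heme and LPS array a. Of 18 heat shock and protein folding genes 9 rose and 0 fell, beside 12.9% and 14.4% of all genes. The list's median log2 ratio was 2.11, 0.56 and 0.62 on the heme and LPS arrays against -0.04, -0.11 and -0.03 under albumin. Without heme and LPS array a 6 rose and 2 fell. Hspa1a, the inducible HSP70 gene, stood at -0.65, -0.24 and -0.25 under albumin and at 4.71, 3.19 and 4.02 under heme and LPS (4.35 ± 0.59, limma adjusted p = 8.7e-05), and its difference under LPS alone was 3.59. Dnajb4, a co-chaperone gene, rose by 3.76 ± 0.48, from -0.17, -0.11 and -0.22 to 3.89, 3.59 and 3.30, while its difference under LPS alone was 0.17 and not called. Bag3, a partner of HSP70 in autophagy, rose by 2.29 ± 0.23 and stood at 2.47, 1.64 and 1.62. Hsp90aa1 shows the spread among the arrays, with 4.36, 1.0 and 1.04 under heme and LPS. Its rise of 2.22 ± 0.71 (adjusted p = 0.03) was not called without heme and LPS array a (1.11, adjusted p = 0.0911) or without any 1 albumin array (highest adjusted p = 0.0709), nor with the 6 arrays alone (adjusted p = 0.203) or the 9 wild-type arrays (adjusted p = 0.113).

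In the integrated and ER stress response, which slows translation and raises amino acid supply, 9 of 30 genes rose and 1 fell, beside 12.9% and 14.4% of all genes, and 0 fell without heme and LPS array a. The median log2 ratio of the list was 1.30, 0.36 and 0.23 on the heme and LPS arrays against -0.14 on each albumin array. Slc3a2, the partner chain of Slc7a11 in the cystine transporter, rose by 2.78 ± 0.33 (-0.46, -0.49 and -0.45 to 3.06, 1.89 and 2.01). Ppp1r15a, which ends the translation block, rose by 2.01 ± 0.37. For Chac1 and Asns, known targets of ATF4, array a alone was high. Chac1 stood at 5.55, 1.58 and 0.83 (difference 1.91 ± 0.98, limma adjusted p = 0.176) and Asns at 3.76, 0.65 and 0.25 (1.46 ± 0.66, adjusted p = 0.122). Neither was called.

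The classical inflammatory genes were also far above albumin. Of 26 genes of inflammatory cytokines and enzymes, 14 rose and 0 fell, where 12.9% and 14.4% of all genes did. The median difference was 2.58, and 19 members lay above albumin on all 3 arrays, where 19.9% of all genes did. The median difference under LPS alone, which shares the albumin arrays, was 3.60 with 19 members higher, where 12.3% of all genes were. Il1b, the interleukin-1 beta gene, stood at 0.65, 0.50 and 0.00 under albumin and at 7.66, 7.05 and 7.78 under heme and LPS. It rose by 7.11 ± 0.26 (limma adjusted p = 1.22e-09), and its 10 probes gave 6.06 to 8.32. Tnf, the tumor necrosis factor gene, went from -0.54, -0.59 and -0.54 to 4.66, 4.25 and 4.67, a rise of 5.08 ± 0.21 (adjusted p = 3.41e-09) that is 33.9-fold. Ptgs2, the inducible prostaglandin synthase, went from -0.58, -0.19 and -0.16 to 8.80, 8.54 and 9.63 (9.30 ± 0.52, adjusted p = 3.95e-08). In these 3 genes the difference under LPS alone was 7.27, 4.74 and 9.10.

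Il6, an acute phase cytokine gene, was 0 on the 3 albumin arrays and stood at 9.0, 9.22 and 11.06 under heme and LPS. A value of exactly 0 may be no measurement, which leaves the size of such a rise uncertain. Il1a, the interleukin-1 alpha gene, was likewise at 0 under albumin and at 4.00, 6.53 and 7.13 under heme and LPS. Acod1, which makes itaconate, rose by 6.03 ± 0.58 and stood at 7.23, 5.46 and 6.41. Il36g, an interleukin-36 gene, rose by 3.51 ± 0.49 from 0.77, 0.32 and 1.06 to 3.01, 4.52 and 5.17, where the difference under LPS alone was 0.27. Csf2 and Csf3, the colony-stimulating factor genes, were near 0 on heme and LPS array a (0.24 and 0.00) and high on b and c (5.41 and 5.97 for Csf2, 4.27 and 5.54 for Csf3). Neither was called (limma adjusted p = 0.184 and 0.229).

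A further set was above albumin by less than under LPS alone. Il12b, the p40 subunit of interleukin-12 and interleukin-23, stood at -0.02, 0.02 and 0.15 under albumin, at 2.08, 6.0 and 6.07 under heme and LPS and at 8.65, 8.45 and 8.17 under LPS. Its rise was 4.67 ± 0.85 (limma adjusted p = 0.000882) and was not called with the 6 arrays alone (adjusted p = 0.0509). Edn1, the endothelin-1 gene, rose by 2.87 ± 0.55, against a difference of 7.38 under LPS alone, and was not called with the 6 arrays alone (adjusted p = 0.0516). Il10, an anti-inflammatory cytokine gene, went from -0.06, 0.15 and 0.08 to 3.18, 1.73 and 2.59, a rise of 2.44 ± 0.36 (adjusted p = 0.000159), with LPS arrays at 5.62, 5.03 and 4.59. Nos2, the inducible nitric oxide synthase, stood at 0.25, 0.75 and 0.55 under albumin, 2.13, 1.30 and 1.70 under heme and LPS and 5.48, 5.50 and 5.38 under LPS. The 3 groups did not overlap. The rise of Nos2 against albumin was 1.19 ± 0.41 (adjusted p = 0.0444), and the difference of heme and LPS from LPS was -3.75 ± 0.41 (adjusted p = 2.5e-05), a contrast in which 8.34% of all genes were called higher and 6.35% lower. Its rise was not called without any 1 albumin array or without heme and LPS array a or c (0.98 to 1.31, highest adjusted p = 0.147). Il1rn, the interleukin-1 receptor antagonist gene, stood at 4.28, -0.16 and 0.09 and was not called.

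**Figure D2:**
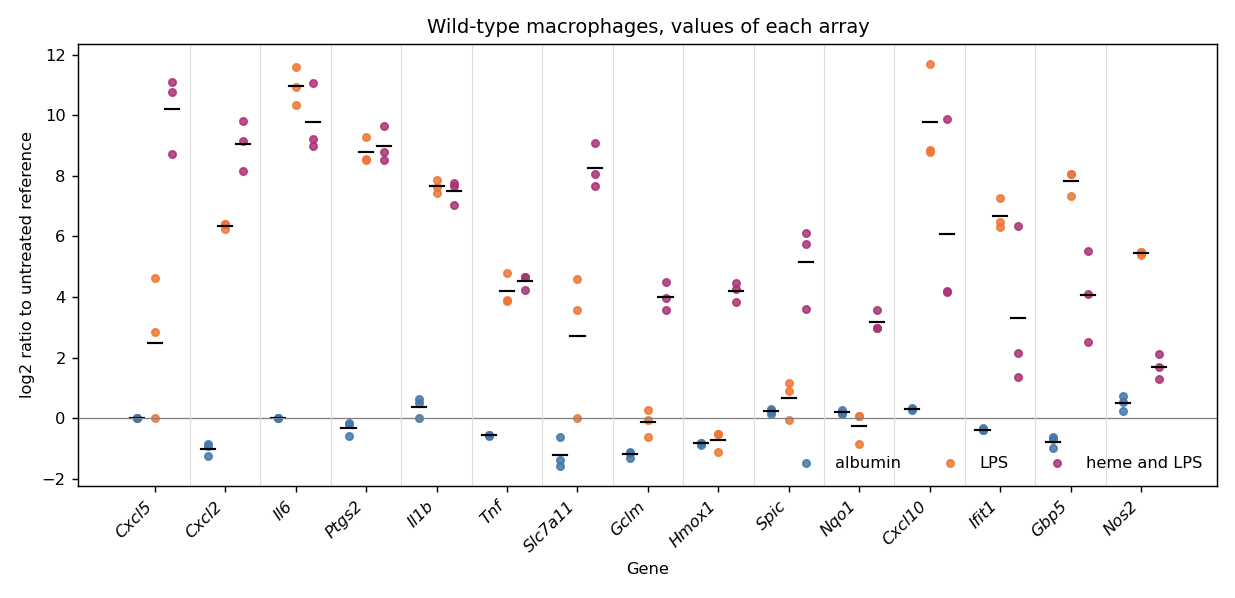
Points are the log2 ratio to the untreated reference (y axis) of 15 genes (x axis) on each wild-type array, with 3 arrays of albumin (blue), 3 of LPS (orange) and 3 of heme and LPS (purple); black bars are group means. Hmox1, Gclm and Nqo1 are highest on the purple arrays, Il1b, Tnf and Ptgs2 are high on the orange and the purple ones, and Nos2 lies between albumin and LPS (1.30 to 2.13).

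Chemokine genes split into those far above albumin and those near it. Of 27 measured 12 rose and 2 fell, where 12.9% and 14.4% of all genes did. The median difference was 0.63, and 3.69 under LPS alone. The strongest risers were the neutrophil-attracting CXC chemokines. Cxcl2 stood at -1.23, -0.92 and -0.85 under albumin, 9.82, 8.15 and 9.16 under heme and LPS and 6.26, 6.40 and 6.41 under LPS. It rose by 10.04 ± 0.57 (limma adjusted p = 4.21e-08), and its difference from LPS was 2.69 ± 0.57 (adjusted p = 0.0044). Cxcl1 went from 1.57, 0.53 and 0.63 to 8.84, 8.24 and 8.59 (7.65 ± 0.53, adjusted p = 2.43e-07). Cxcl5 and Cxcl3 were 0 on each of the albumin arrays. Cxcl5 stood at 8.73, 11.11 and 10.77 under heme and LPS and at 0.00, 2.86 and 4.62 under LPS, and Cxcl3 at 8.49, 7.43 and 8.51 under heme and LPS and at 2.49, 6.40 and 5.81 under LPS. In all 4 genes every heme and LPS array lay above every albumin array, where 19.9% of all genes did. The difference from LPS was also called for Cxcl5 (7.71 ± 0.99, limma adjusted p = 0.0001), where 8.34% of all genes were called higher. It was not called for Cxcl1 (1.45 ± 0.53, adjusted p = 0.0914) or Cxcl3 (3.24 ± 1.58, adjusted p = 0.242). LPS array a of Cxcl5 was at exactly 0, which may be no measurement and leaves the size of its difference from LPS uncertain. Probes of Cxcl1, Cxcl2 and Cxcl3, which are close paralogs, may share targets.

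Ppbp, a platelet chemokine gene of the same cluster, rose by 4.14 ± 0.34, from 0.11, -0.01 and 0.06 to 4.78, 3.83 and 3.95, where its difference under LPS alone was -0.05. Ccl3, a macrophage inflammatory protein gene, rose by 4.10 ± 0.14 and differed by 4.24 under LPS alone. The monocyte chemokine gene Ccl2 was at 3.12 on heme and LPS array a and at -0.79 and -1.74 on b and c. Its difference from albumin was 0.09 ± 0.95 and was not called, where LPS alone had 5.33, 2.78 and 3.29. Ccl6, which macrophages make without stimulation, fell by 0.96 ± 0.26, and this was not called without heme and LPS array a (-0.71, limma adjusted p = 0.0687). The second gene that fell was Cxcl14 (-1.47 ± 0.45), which was not called when any 1 albumin array (highest adjusted p = 0.07) or heme and LPS array a (-1.01, adjusted p = 0.117) was left out, nor with the 6 arrays alone (adjusted p = 0.0704).

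Promoters of 3 CXC chemokine genes are shown because these genes rose together and NF-kB is known to bind there. The part of the NF-kB site searched was GGANTTTCC on both strands, which 1.07% of the windows hold. Of 19 chemokine genes with a window 4 hold it, and of 28 NF-kB pathway genes with a window 4 do, where 1.25% of all genes with a window do. The stretches lie at chr5:90891159-90891199 (Cxcl1), chr5:90903787-90903827 (Cxcl2) and chr5:90786013-90786053 (Cxcl3), all on the plus strand of GRCm38.p6, from RefSeq, with the match in capitals.
Cxcl1: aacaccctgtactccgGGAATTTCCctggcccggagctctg
Cxcl2: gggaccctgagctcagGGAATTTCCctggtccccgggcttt
Cxcl3: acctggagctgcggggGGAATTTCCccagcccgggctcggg

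Genes of NF-kB signalling and its negative feedback lay above albumin. Of 31 measured 24 rose and 0 fell, where 12.9% and 14.4% of all genes did. All 31 lay above albumin on all 3 arrays, where 19.9% of all genes did. The median difference was 2.26, and 2.92 under LPS alone. The list's median log2 ratio was 1.98, 1.69 and 2.07 on heme and LPS arrays a, b and c. Tnfaip3, which encodes the inhibitor A20, rose by 4.84 ± 0.76 (-0.11, 0.09 and -0.12 to 6.09, 4.00 and 4.29). Nfkbiz, an atypical IkB that promotes a second wave of genes, rose by 4.11 ± 0.43 and stood at 3.33, 3.54 and 3.58, with the LPS arrays at 6.66, 5.07 and 4.55. Socs3, a suppressor of cytokine signalling, rose by 3.03 ± 0.15 (limma adjusted p = 1.4e-08), and Cflar, a caspase-8 inhibitor, by 3.37 ± 0.21. Among the members not called were Tnip3 (2.67 ± 0.96, adjusted p = 0.0519) and the phosphatase gene Dusp1 (2.52 ± 0.93, adjusted p = 0.0582), both of which were highest on array a.

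Upstream of NF-kB, 13 of 28 genes of the LPS receptor and its signalling rose and 3 fell, beside 12.9% and 14.4% of all genes. Without albumin array a, b or c the number that rose was 8, 8 and 7, and without heme and LPS array c it was 8. Cd14, the co-receptor for LPS, rose by 2.26 ± 0.31 (-0.41, -0.40 and -0.41 to 1.62, 1.99 and 1.95). The kinase gene Map3k8 rose by 2.00 ± 0.31. Ticam1, the adaptor TRIF of the interferon branch, rose by 1.45 ± 0.24, from -0.10, -0.18 and -0.05 to 1.45, 1.07 and 1.50, where its difference under LPS alone was 0.39 and not called. Irf3, the interferon regulatory factor downstream of TRIF, fell by 0.62 ± 0.12.

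For interferon-stimulated genes the 3 heme and LPS arrays differed among themselves. Of 42 measured genes of the type I interferon response 7 rose and 0 fell, beside 12.9% and 14.4% of all genes. The median difference was 0.35, against 3.03 under LPS alone. In that comparison 39 of the 42 were called higher, beside 12.3% of all genes. The list's median log2 ratio was 1.42 on heme and LPS array a, -0.71 on b and -0.18 on c, against -0.10, -0.07 and -0.12 under albumin and 3.34, 2.51 and 2.28 under LPS. Without heme and LPS array a 4 rose and 2 fell, and without any 1 albumin array 4 rose. With the 6 arrays alone 3 rose.

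Ifnb1, the gene of interferon beta itself, stood at -1.08, 1.46 and -0.73 under albumin and at 4.76, 3.12 and 3.68 under heme and LPS, a rise of 3.97 ± 0.74 (limma adjusted p = 0.00105), with LPS at 5.38, 7.87 and 7.56. Ifit1, an antiviral gene that binds foreign RNA, was at 6.36 on heme and LPS array a and at 1.37 and 2.17 on b and c, where albumin had -0.40, -0.33 and -0.39. Its rise of 3.67 ± 0.95 (adjusted p = 0.00969) was 2.15 without array a and was not called with the 6 arrays alone (adjusted p = 0.14) or the 9 wild-type arrays (adjusted p = 0.0643). Oasl1, a regulator of Irf7 translation, rose by 3.64 ± 0.44 with 4.82, 3.09 and 3.41. Mx1 stood at 4.68, 0.03 and 1.25 and was not called (1.92 ± 0.91, adjusted p = 0.141), with 0.58 without heme and LPS array a. Without heme and LPS array b it was 2.90 and called (adjusted p = 0.0254). Cxcl10, an interferon-induced chemokine gene, went from 0.31, 0.33 and 0.29 to 9.86, 4.18 and 4.20. Its rise of 5.77 ± 1.24 (adjusted p = 0.00298) was 3.88 without array a and was not called with the 6 arrays alone (adjusted p = 0.0765).

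Guanylate-binding proteins and immunity-related GTPases, which attack vacuoles with pathogens, had the same order of arrays. Of 16 members 3 rose and 1 fell, beside 12.9% and 14.4% of all genes, with list medians of 1.61, -0.86 and 0.00 on heme and LPS arrays a, b and c and of 4.63, 3.83 and 3.47 under LPS. With the 6 arrays alone 1 rose, and without heme and LPS array b 0 fell. Gbp5 rose by 4.83 ± 0.72 (limma adjusted p = 0.000198), from -0.69, -0.98 and -0.63 to 5.53, 2.53 and 4.10. Gbp2 rose by 2.05 ± 0.56 and stood at 3.27, 0.77 and 1.90. It was not called without heme and LPS array a (1.41, adjusted p = 0.0647) or with the 6 arrays alone (adjusted p = 0.0922). Gbp11 fell by 3.24 ± 0.87, from 0.20, 0.16 and 0.12 to -2.40, -4.02 and -2.81, while the LPS arrays stood at 4.64, 2.82 and 3.28. The heme and LPS arrays of Gbp11 thus lay below albumin and the LPS arrays above it. Without heme and LPS array b its difference was -2.77 and not called (adjusted p = 0.0523). Probes of this family can share targets, so that single members are uncertain.

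**Figure D3:**
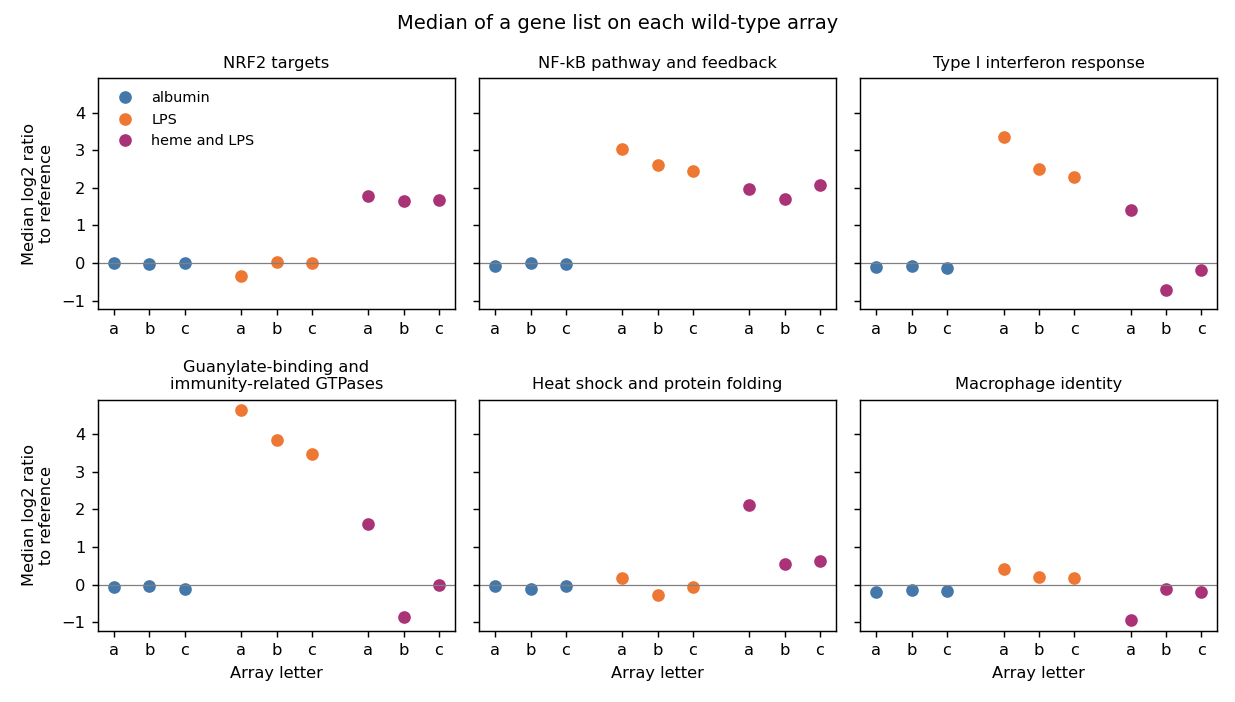
Each panel gives the median log2 ratio to the reference (y axis) of the members of 1 gene list on each wild-type array (x axis, letters a to c) under albumin (blue), LPS (orange) and heme and LPS (purple). NRF2 targets are alike on the 3 purple arrays (1.64 to 1.78), while the interferon list runs from -0.71 to 1.42 and heat shock genes from 0.56 to 2.11, with array a the highest.

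Promoter stretches of 3 interferon-induced genes are shown beside these values, since such genes carry interferon-stimulated response elements. The part searched was GAAANNGAA on both strands, held by 7.13% of the windows. Of the 32 genes of the interferon list with a window 14 hold it, and 8 of 9 of the GTPase list, where 8.18% of all genes with a window do. The stretches are chr5:92349078-92349118 on the minus strand (Cxcl10), chr19:34640764-34640829 on the plus strand (Ifit1, with 3 matches, of which some overlap) and chr3:142496754-142496794 on the plus strand (Gbp5), with matches in capitals.
Cxcl10: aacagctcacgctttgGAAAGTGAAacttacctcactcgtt
Ifit1: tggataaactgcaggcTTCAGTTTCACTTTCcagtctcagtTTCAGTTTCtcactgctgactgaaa
Gbp5: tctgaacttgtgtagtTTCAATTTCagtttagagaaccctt

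In MHC class I presentation 4 of 19 genes rose and 2 fell, beside 12.9% and 14.4% of all genes, with a median difference of 0.32. Under LPS alone 17 were higher, where 12.3% of all genes were. Under quantile normalization 7 rose, and with the 6 arrays alone 5 fell. The classical heavy chain gene H2-D1 rose by 1.14 ± 0.17 (-0.68, -0.82 and -0.70 to 0.38, 0.44 and 0.39) and H2-K1 by 0.81 ± 0.20. H2-M3, which presents bacterial formyl peptides, fell by 0.93 ± 0.13, from 0.24, 0.33 and 0.20 to -0.94, -0.52 and -0.57. The other gene that fell was the immunoproteasome gene Psmb9 (-1.33 ± 0.39), which was not called without albumin array a or b or heme and LPS array b or c (-1.20 to -1.32, limma highest adjusted p = 0.0713). In MHC class II presentation 2 of 14 rose and 3 fell, against the same shares of all genes. With the 6 arrays alone 1 rose and 0 fell, and with the 9 wild-type arrays 1 rose and 1 fell. The invariant chain gene Cd74 (0.96 ± 0.30) and H2-Ab1 (0.84 ± 0.26) rose, and both lost their call without albumin array b (adjusted p = 0.0695 and 0.0677), albumin array c (adjusted p = 0.0635 and 0.062) or heme and LPS array b (adjusted p = 0.0849 and 0.121). Cd74 also lost it without heme and LPS array a (adjusted p = 0.067), and H2-Ab1 without albumin array a (adjusted p = 0.0587), with the 6 arrays alone (adjusted p = 0.0523), with the 9 wild-type arrays (adjusted p = 0.0572) and under quantile normalization (0.57, adjusted p = 0.0854). The lysosomal protease gene Lgmn fell by 1.76 ± 0.38 (-2.84, -1.14 and -1.11 against 0.06, 0.07 and 0.05), and was not called with the 6 arrays alone (adjusted p = 0.0754). The peptide loading genes H2-DMa and H2-DMb1 were the other falls. H2-DMb1 (-0.72 ± 0.18) was not called with the 6 arrays alone (adjusted p = 0.0859) or the 9 wild-type arrays (adjusted p = 0.051). H2-DMa (-1.09 ± 0.38, adjusted p = 0.0456) was not called in these settings either (adjusted p = 0.16 and 0.0772), nor without any 1 albumin array (-1.02 to -1.15, highest adjusted p = 0.118) or without heme and LPS array a (-0.61, adjusted p = 0.205).

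Co-stimulation and maturation genes were raised in part. Of 18 measured 8 rose and 2 fell, beside 12.9% and 14.4% of all genes, and without heme and LPS array a 8 rose and 0 fell. The activation antigen gene Cd69 went from 0.48, 0.43 and 0.61 to 6.51, 4.38 and 4.63 (4.67 ± 0.68, limma adjusted p = 0.000151), and the LPS arrays stood at 10.49, 9.20 and 9.23. Icam1, an adhesion molecule gene, rose by 4.17 ± 0.25 and Tnfsf15 by 4.24 ± 0.35. Cd83, a maturation marker, stood at -0.14, -0.20 and -0.15 under albumin, at -1.31, -0.61 and -1.04 under heme and LPS and at 3.21, 2.83 and 3.24 under LPS. Its fall of 0.82 ± 0.22 (adjusted p = 0.0111) was not called without heme and LPS array a (-0.66, adjusted p = 0.0544).

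Macrophage identity genes moved in both directions. Of 28 measured 7 rose and 9 fell, beside 12.9% and 14.4% of all genes, with a median difference of -0.08. The list's median log2 ratio was -0.95 on heme and LPS array a and -0.13 and -0.19 on b and c, close to the -0.20, -0.15 and -0.19 of albumin. Adgre1 (F4/80), Csf1r, Cd68 and Lyz2 were not listed at 0 on any of the 6 arrays. Ratios to an untreated macrophage reference cannot show the cell type, so the label of macrophages was not tested. Adgre1 rose by 0.63 ± 0.12 and Csf1r, the M-CSF receptor gene, was not called (0.78 ± 0.29, limma adjusted p = 0.0596). Lyl1, a hematopoietic transcription factor gene, went from 0.30, 0.32 and 0.29 to -4.99, -4.33 and -4.98, a fall of 5.07 ± 0.31 (adjusted p = 9.67e-08), and its difference under LPS alone was -5.41. Maf, a transcription factor gene of resident macrophages, went from -0.21, -0.20 and -0.17 to -3.72, -3.41 and -3.27, a fall of 3.27 ± 0.21 (adjusted p = 1.18e-07), with -0.73 under LPS alone. The 2 probes of Maf gave -5.18 and -1.37.

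Fcgr1, the high-affinity IgG receptor gene, stood at 0.32, 0.36 and 0.32 under albumin, at -1.85, -3.57 and -4.11 under heme and LPS and at 3.15, 1.85 and 1.62 under LPS. It fell by 3.51 ± 0.76 (limma adjusted p = 0.003). Irf8, a monocyte lineage factor gene, stood at -1.90, -1.89 and -1.89 under heme and LPS against 0.02, -0.02 and 0.01 under albumin. Its fall of 1.90 ± 0.61 (adjusted p = 0.0307) was not called when any 1 of the 6 arrays was left out (-1.89 to -1.91, highest adjusted p = 0.0723). Cebpa, a myeloid transcription factor gene, went the other way, from -1.89, -1.92 and -1.81 to -0.66, 1.85 and 1.69, a rise of 2.84 ± 0.61 (adjusted p = 0.00298) with the LPS arrays at -4.28, -3.32 and -2.87. It was not called with the 6 arrays alone (adjusted p = 0.0525). Cebpb rose by 2.71 ± 0.64 and Id3, an inhibitor of DNA binding, by 2.62 ± 0.46.

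Receptors of resident and surveilling macrophages were among the largest falls. Of 31 G-protein-coupled receptor genes 11 fell and 7 rose, beside 14.4% and 12.9% of all genes, with a median difference of -0.41. Without albumin array c 4 rose. Gpr34, a lysophosphatidylserine receptor gene, stood at -0.02, 0.00 and -0.02 under albumin and at -6.38, -4.27 and -3.83 under heme and LPS (-4.81 ± 0.56, limma adjusted p = 2.56e-05), with -3.23, -2.49 and -2.52 under LPS. Gpr183, an oxysterol receptor gene, fell by 4.61 ± 0.50 and differed by -4.61 under LPS alone as well. The nucleotide receptor genes P2ry6 (-2.82 ± 0.30), P2ry12 (-2.36 ± 0.28), P2ry13 (-2.31 ± 0.44) and P2ry14 (-2.41 ± 0.51) fell. P2ry13 stood at -0.12, -0.09 and -0.09 under albumin, -3.13, -1.74 and -2.38 under heme and LPS and 1.14, 0.26 and 0.38 under LPS. Ednrb, an endothelin receptor gene, was the largest riser of the list with 4.50 ± 0.47, from -0.29, -0.23 and -0.40 to 3.61, 3.60 and 5.38, and its difference under LPS alone was 0.43. The formyl peptide receptor gene Fpr2 rose by 4.48 ± 1.14, and Ccrl2, a chemerin receptor gene, by 3.31 ± 0.18.

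**Figure D4:**
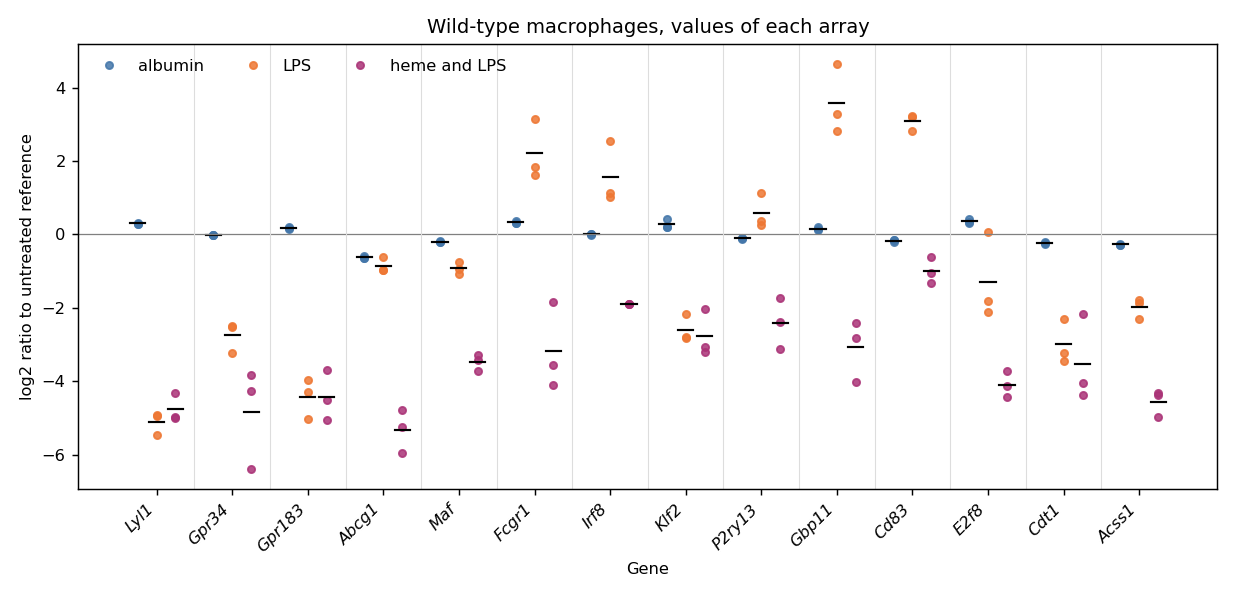
Points are the log2 ratio to the untreated reference (y axis) of 14 genes (x axis) on each wild-type array under albumin (blue), LPS (orange) and heme and LPS (purple), with black bars at the group means. Lyl1, Gpr183 and Klf2 are low on both the orange and the purple arrays, while Abcg1, Maf, Fcgr1 and Gbp11 are low on the purple arrays and higher on the orange ones, where Maf differed from albumin by -0.73.

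Scavenger receptor and efferocytosis genes also went both ways, with 10 of 29 higher and 7 lower, beside 12.9% and 14.4% of all genes. The list's median log2 ratio was -0.68 on heme and LPS array a and -0.08 and -0.03 on b and c, against -0.11, -0.17 and -0.13 under albumin. Without any 1 albumin array, or without heme and LPS array a, 4 fell. Clec4e, which senses mycobacterial glycolipid, rose by 5.06 ± 0.47, and Clec7a, the beta-glucan receptor gene, by 3.29 ± 0.69, with 1.23, 4.02 and 4.31 under heme and LPS against -0.11, -0.03 and -0.16. Clec7a was not called with the 6 arrays alone (limma adjusted p = 0.0598). Mertk, the receptor for apoptotic cells, fell by 2.62 ± 0.80 (-0.43, -0.50 and -0.46 to -3.34, -2.76 and -3.16, adjusted p = 0.0248). It lost its call without any 1 albumin array or heme and LPS array a or c (-2.50 to -2.64, highest adjusted p = 0.0691). Quantile normalization also left it not called (-2.11, adjusted p = 0.0597). Its ligand gene Gas6 fell by 2.22 ± 0.43. Of 27 anti-inflammatory and alternative activation genes 4 rose and 7 fell, where 12.9% and 14.4% of all genes did, and with the 6 arrays alone 4 fell. Klf2, a transcription factor gene that restrains NF-kB, fell by 3.04 ± 0.30, and the mannose receptor gene Mrc1 by 1.31 ± 0.31 (-0.50, -0.43 and -0.50 to -2.38, -1.44 and -1.56). Arg1, the arginase gene of alternative activation, was at 0.00, -0.65 and 0.00 and was not called (-0.17 ± 0.32, adjusted p = 0.764).

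In the LXR target and lipid handling list 2 of 22 genes rose and 8 fell, beside 12.9% and 14.4% of all genes, with a median difference of -0.63. Abcg1, the cholesterol exporter to HDL, went from -0.64, -0.58 and -0.65 to -5.96, -4.77 and -5.25, a 26.1-fold fall (-4.71 ± 0.42, limma adjusted p = 2.11e-06), where its difference under LPS alone was -0.23 and not called. Abca1, its partner for lipid-poor apolipoprotein, fell by 1.86 ± 0.49, and Nr1h3, which encodes LXR alpha, by 1.39 ± 0.27. Lpl, lipoprotein lipase, rose by 1.15 ± 0.18. In cholesterol synthesis and uptake 0 of 20 rose and 4 fell, beside 12.9% and 14.4% of all genes, and 2 fell without heme and LPS array a. Mevalonate kinase (Mvk, -1.17 ± 0.24) was among the 4. The median log2 ratio of the synthesis and uptake list was -1.01 on heme and LPS array a, -0.13 on b and -0.29 on c, against -0.18, -0.11 and -0.19 under albumin. Fdft1, squalene synthase, was 1 of the 4 (-0.90 ± 0.25), but its 2 probes gave -2.36 and 0.56. Fdft1 was not called without albumin array b (-0.84, adjusted p = 0.0511) or heme and LPS array a (-0.73, adjusted p = 0.0671).

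Lysosome genes were divided, with 6 of 28 higher and 7 lower, beside 12.9% and 14.4% of all genes. Their median log2 ratio was -0.90 on heme and LPS array a and -0.23 and -0.22 on b and c, against -0.16, -0.21 and -0.19 under albumin. Without albumin array b or heme and LPS array c 3 rose, and without heme and LPS array a 4 fell. The proton pump subunit gene Atp6v1h rose by 2.67 ± 0.27 (-1.15, -1.03 and -1.12 to 2.17, 1.14 and 1.39). Tfeb, the transcription factor gene of lysosome formation, fell by 2.15 ± 0.33, with a difference of -3.24 under LPS alone. In glycolysis and the hypoxia response 12 of 27 rose and 4 fell, beside 12.9% and 14.4% of all genes, and with the 6 arrays alone 2 fell. The vasodilator peptide gene Adm went from 0.57, 0.74 and 2.21 to 5.69, 5.84 and 6.15 (4.72 ± 0.83), and the glucose transporter gene Slc2a1 from 0.50, 0.60 and 0.53 to 3.24, 2.56 and 2.68 (2.28 ± 0.26, limma adjusted p = 2.04e-05). Pgk1, a glycolytic kinase gene, rose by 1.15 ± 0.17 and Hif1a by 1.63 ± 0.29. In the mitochondrial respiratory chain 0 of 28 genes rose and 12 fell, beside 12.9% and 14.4% of all genes. Each fell by less than 1 log2 unit, with Sdhd (-0.84 ± 0.17) and Cox5b (-0.65 ± 0.13) among them. All 3 heme and LPS arrays lay below albumin for 20 of these genes, where 23.8% of all genes did. The list's median log2 ratio was -0.27, -0.07 and -0.11 on heme and LPS arrays a, b and c, against 0.21, 0.20 and 0.22 under albumin. Without heme and LPS array a 8 fell. Under LPS alone 9 were lower and 3 higher, where 16.3% and 12.3% of all genes were.

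Most of the cell cycle and DNA replication genes fell. Of 37 measured 23 fell and 0 rose, where 14.4% and 12.9% of all genes did, and the median difference was -1.80. All 3 heme and LPS arrays lay below albumin for 27 members, where 23.8% of all genes did. The list's median log2 ratio was -1.98, -1.69 and -1.96 on the heme and LPS arrays, -0.17, -0.21 and -0.25 under albumin and about -1.1 under LPS (-1.13, -1.11 and -1.10). Without heme and LPS array a 18 fell. Cdt1, which loads the replicative helicase, went from -0.24, -0.20 and -0.26 to -2.16, -4.05 and -4.38 (-3.30 ± 0.47, limma adjusted p = 0.00014). Its inhibitor gene Gmnn fell by 3.26 ± 0.50. E2f8, a repressor of the cell cycle, went from 0.31, 0.41 and 0.34 to -4.43, -3.73 and -4.13 (-4.45 ± 0.47, adjusted p = 9.77e-06), with LPS arrays at 0.06, -1.82 and -2.12. Ccna2, the cyclin A gene, stood at -5.36, -1.97 and -2.50 and fell by 3.49 ± 0.84, and was not called with the 6 arrays alone (adjusted p = 0.0617). Dtl, which marks Cdt1 for degradation, fell by 4.32 ± 0.73.

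**Figure D5:**
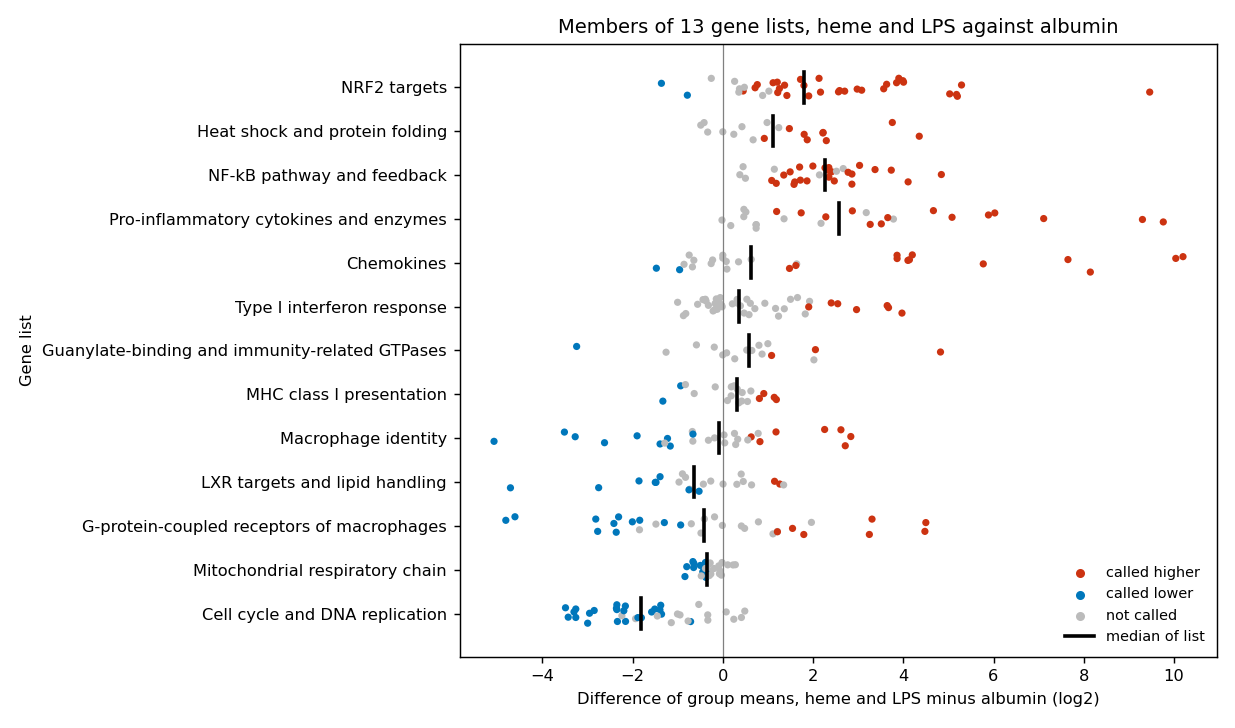
Each point is a measured member of 1 of 13 gene lists (y axis), placed at its difference of group means (heme and LPS minus albumin, log2, x axis) and coloured by the limma call, with black bars at list medians. NRF2 targets and NF-kB genes lie mostly to the right (medians 1.80 and 2.26), cell cycle genes to the left (-1.80), and the interferon list around 0 (0.35).

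Of the BCL2 and p53 related genes 7 of 26 rose and 5 fell, beside 12.9% and 14.4% of all genes. Bmf, which promotes apoptosis, went from 0.67, 0.87 and 0.70 to -4.71, -2.99 and -3.51 (-4.48 ± 0.54, limma adjusted p = 2.95e-05). Tnfrsf10b, a TRAIL receptor gene, rose by 2.23 ± 0.24, where its difference under LPS alone was -0.67, and the stress-induced gene Gadd45b by 2.90 ± 0.23. Among AP-1, EGR and immediate-early factors 9 of 27 rose and 3 fell, beside 12.9% and 14.4% of all genes, and 14 rose under quantile normalization. Fosl1, an AP-1 subunit gene, rose by 3.90 ± 0.43 (-0.27, -0.29 and 0.24 to 3.44, 3.60 and 4.35), where its difference under LPS alone was -0.13. The small Maf genes, partners of NRF2 on DNA, rose with 3.83 ± 0.43 for Maff and 2.26 ± 0.22 for Mafg. Fos stood at -0.97, -5.35 and -5.46 and fell by 3.85 ± 0.96, and was not called with the 6 arrays alone (adjusted p = 0.114) or the 9 wild-type arrays (adjusted p = 0.0581). Klf10, a TGF-beta induced factor gene, fell by 3.67 ± 0.35.

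Among 30 genes of matrix proteases, their inhibitors and coagulation 9 rose and 3 fell, beside 12.9% and 14.4% of all genes, and without albumin array a 1 fell. Serpinb2, a plasminogen activator inhibitor gene, was at 0 on all albumin arrays and at 3.62, 6.81 and 6.80 under heme and LPS. Adamts4, an aggrecanase gene, rose by 5.07 ± 0.58, the protein C receptor gene Procr by 4.66 ± 0.70, and thrombomodulin (Thbd) fell by 2.88 ± 0.63. Tissue factor (F3) rose by 2.96 ± 0.59, although its 2 probes gave 1.29 and 4.64. In the NADPH oxidase and superoxide list 6 of 14 rose and 3 fell, beside 12.9% and 14.4% of all genes. The mitochondrial superoxide dismutase gene Sod2 rose by 3.54 ± 0.45, the oxidase gene Cybb by 1.73 ± 0.15 and the catalase gene Cat by 1.72 ± 0.24. Gpx1, the cytosolic glutathione peroxidase gene, went from -0.04, -0.13 and -0.04 to -1.40, -1.47 and -1.41 (-1.35 ± 0.09, limma adjusted p = 2.84e-07). Among 11 metallothionein and zinc transporter genes 3 rose, beside 12.9% of all genes, and the largest rise was that of Slc39a14 (3.73 ± 0.38). Without albumin array a or b, or without heme and LPS array a, 1 rose. Mt1 (-0.88 ± 0.46, adjusted p = 0.189) and Mt2 (0.66 ± 0.89, adjusted p = 0.66) were not called.

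Beyond the lists, the largest rises included Tma16 (5.39 ± 0.46), Flrt3, an adhesion protein gene (5.33 ± 1.06), the acute phase gene Saa1 (5.20 ± 0.35) and Scgb2a2, a secretoglobin gene. Scgb2a2 stood at -0.45, -0.99 and -0.66 under albumin, at 4.17, 4.27 and 4.80 under heme and LPS and at exactly 0 on all 3 LPS arrays. The largest falls included Cables1 (-5.20 ± 0.44), the organic anion transporter gene Slco2b1 (-4.80 ± 0.77) and Rasgrp3, a Ras activator gene (-4.62 ± 0.68). Acss1, the mitochondrial acetyl-CoA synthetase gene, went from -0.29, -0.25 and -0.28 to -4.37, -4.33 and -4.96 (-4.28 ± 0.24, limma adjusted p = 4.21e-08), with -2.31, -1.87 and -1.78 under LPS. Snx24 (-4.40 ± 0.42), Haus4 (-4.26 ± 0.65), the DNA glycosylase gene Mbd4 (-4.24 ± 0.32) and the angiopoietin gene Angpt2 (-4.25 ± 0.48) followed. Of the genes called higher 19 were listed at 0 on all albumin arrays, and of those called lower 74 were listed at 0 on all heme and LPS arrays. Olfr691, an olfactory receptor gene, is an example with 1.75, 2.03 and 1.76 under albumin and 0 throughout under heme and LPS. Of the genes called higher 66 had all heme and LPS arrays at 0 and an albumin mean below 0. Such a value of 0 may be no measurement.

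Some markers of other cells that a marrow culture can hold were called, beside 12.9% of all genes called higher and 14.4% called lower. Among 15 neutrophil markers S100a8 (3.40 ± 0.49) and Ngp (1.60 ± 0.35) rose and Cebpe fell (-1.76 ± 0.20). The summed log2 ratio of that list was -0.65 to 0.81 under albumin and 3.37 to 12.51 under heme and LPS. Elane (0.35), Mpo (0.47), Ly6g (0.06) and Camp (1.96) were not called. With the 9 wild-type arrays, or with the replicate letter as a block, 4 neutrophil markers rose. Camp was called in both settings (limma adjusted p = 0.0485 and 0.0337). Of 11 B cell markers 0 rose and Blnk (-2.82 ± 0.41) and Cd79b (-1.49 ± 0.39) fell, with sums of -0.44 to 1.44 under albumin and -5.48 to 0.65 under heme and LPS, and Ms4a1 at 0 on all 6 arrays. Cd79b was not called without heme and LPS array c (-1.05, limma adjusted p = 0.0507) or with the 6 arrays alone (adjusted p = 0.0591). Of 14 T and NK cell markers 2 rose and 1 fell (sums 0.09 to 2.51 and -0.20 to 2.33), of 10 erythroid markers 1 rose (0.27 to 1.96 and -2.36 to 4.38) and of 12 dendritic cell markers 2 rose and 1 fell (1.65 to 3.81 and 2.36 to 2.87). Without albumin array c the numbers that rose in these 3 lists were 1, 0 and 1. Of 11 mast cell and basophil markers the histidine decarboxylase gene Hdc rose (2.16 ± 0.41, sums -0.34 to 2.06 and 0.93 to 3.35), with Ms4a2, Fcer1a and Gata2 at 0 on all 6 arrays. Of 15 stromal and endothelial markers Acta2 rose and Kdr fell (2.25 to 2.89 and -3.59 to 0.94), and Dcn was at 0 on all 6 arrays. Acta2 (1.16 ± 0.39) was not called when any 1 albumin array or heme and LPS array a or b was left out (limma highest adjusted p = 0.163), nor with the 6 or the 9 wild-type arrays alone (adjusted p = 0.105 each), and the 11 probes of Kdr ranged from -3.29 to -0.05. The part of these cells in the results above was not tested.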

How the data were processed

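The authors deposited 1 value per probe and array, a log10 ratio of Cy5 (sample) to Cy3 (untreated reference). Agilent Feature Extraction 10.5.1.1 is named in the submitters' processing notes. That the scale is log10 was read off the number format and range. The sources used here give no probe positions and no background or dye correction. Labelling used 500 ng of total RNA, per the labels. Of 44397 features 33026 carried 1 gene symbol and 11371 none, 32438 probes matched a gene identifier in the RefSeq table, and 0 symbols changed. Values were put on log2, and a gene's probes were averaged (22485 genes, 16347 with 1 probe; 486 at 0 on all 18 arrays). The fit (limma 3.58.1, R 4.3.3, functions lmFit and eBayes) had a mean for each of 5 groups and used all 18 arrays. Tests were two-sided. The script was tested on simulated data. The comparisons of LPS with albumin and of heme and LPS with LPS share arrays with this one, so their values are set side by side only.

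Comparisons of gene lists are counts and medians without a test. The members and the 35 lists were chosen with earlier results of these data known. Named genes were 24 from a fixed list, the 15 largest rises and falls without overlap of arrays and the 5 largest of each direction with 1 group at 0 (gene models without an established name left out), and per list up to 5 called members of each direction and 2 not called. To these 16 were added after their values were seen, of which Ppbp, Ccl3, Ccl2, Il36g (Il1f9 in the files), Il1rn, Edn1, Prdx1, Txnrd1, Fth1, Ftl1, Slc48a1, Blvrb, P2ry12, P2ry13 and Nr1h3 are given; markers at 0 and the macrophage and neutrophil markers not called (Lyz2, Elane, Mpo, Ly6g) were also chosen then. Promoter windows are RefSeq's (GRCm38.p6); windows on chromosome 18 were left out. Figures were drawn in Python 3.11.15 (pandas 2.3.3, matplotlib 3.10.9).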

Additional observations from a re-analysis of the deposited data

How the results depend on the processing

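The counts of called genes stayed within 1.5 times those reported (2903 higher, 3239 lower) in each of 16 alternatives. They were 2706 and 3212 with the 6 arrays alone, 3760 and 3927 with quantile normalization, and 2396 to 2661 and 2680 to 3089 when 1 array was left out. With the replicate letter as a replicate block they were 3465 and 4013. Albumin and heme and LPS arrays of 1 letter did not deviate together (correlations -0.001, -0.023 and -0.011). These correlations cannot decide whether the letters pair the groups compared here, since paired cultures need not deviate together. Between 2 treated groups same-lettered arrays correlated at 0.012 to 0.586, and 14 of 19 such pairs lay over 0.1. Of 245 called named genes 162 kept their call in every alternative and 83 lost it in at least 1. Fdft1 reversed, from -0.90 to 0.56 with 1 probe per gene. Of 70 list counts 42 moved by over 1.5 times in at least 1 alternative. Among the 29 list counts of 5 or more, 9 did. Beside those in the report, with the replicate block 11 G-protein-coupled receptors were higher and 9 heme and iron genes lower. With the 6 arrays alone 4 lysosome genes fell, and with the 9 wild-type arrays 3 interferon genes rose. Taking exact zeros as missing left 14930 genes, with the median of all genes at -0.08. Values at 0 and 3 arrays per group limit what can be called. The causes of these differences were not tested.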
